A study of Mus musculus with 6 samples.

Results

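Transforming growth factor beta (TGF-beta) signalling was examined in the colon of mice that were prone (OP) or resistant (OR) to diet-induced obesity, through 10 genes chosen by their symbols for their place in the pathway: the ligands *Tgfb1*, *Tgfb2* and *Tgfb3*, the latent TGF-beta binding proteins *Ltbp1* and *Ltbp4*, the receptors *Tgfbr1*, *Tgfbr2* and *Tgfbr3*, the TGF-beta-induced matrix protein gene *Tgfbi* and the inhibitor *Smad7*. All 10 were among the 17778 gene symbols measured. Colon RNA came from 3 OP mice and 3 OR mice, each sequenced as a library of its own. All 6 were wild-type C57BL/6J males on the same high-fat diet (60% fat) for 16 weeks, sampled at 21 weeks of age. Of 42 mice on that diet, the 10 with the greatest weight gain were defined as OP and the 10 with the least as OR, so the groups differ in body weight by definition and share genotype, diet and age; how the sequenced mice were taken from them is not given in the sources used here. The tissue was whole colon, a mixture of epithelium, muscle, connective tissue, vessels and immune cells.

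TGF-beta is made as a precursor whose propeptide stays wrapped around the mature cytokine and keeps it inactive. Latent binding proteins attach this small latent complex to fibrillin microfibrils of the matrix, and integrins or proteases release the active ligand. Active TGF-beta assembles the type II receptor TGFBR2 with the type I receptor TGFBR1, which phosphorylates SMAD2 and SMAD3; betaglycan (TGFBR3) presents ligand, and SMAD7, itself a target gene, switches the receptors off. In the gut the pathway is known for restraining inflammation and for driving fibroblasts to lay down matrix.

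Expression was deposited as FPKM (fragments per kilobase of transcript, scaled to the mapped fragments of the library), which carries no read total, so depth and counting error are unknown. The values summed to between 585350 and 600028 in each mouse. OP mouse 1 stood apart from the others: its median FPKM over all listed genes was 3.55, against 4.90 to 5.76 in the other mice, and its limma sample weight was the lowest at 0.332. Results are therefore also given without it. Differences were tested by limma-trend after a log2(FPKM + 1) transformation. The 13520 genes that reached 0.5 FPKM in 3 or more mice were tested, and all 10 TGF-beta genes were among them. Each log2 difference below is the OP mean minus the OR mean on that scale, which understates the change of low genes, with its standard error (SE). Calling a gene required a fold change of 1.2 or more, or of 0.83 or less, together with a limma-trend adjusted *p* (Benjamini-Hochberg, over all genes tested) under 0.2. By this rule 0 of the 10 genes were called, beside 0.0222% of all genes called lower and 0% called higher in OP mice.

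Without adjustment, *Ltbp4*, *Tgfbr3* and *Tgfb3* were lower in OP mice at a limma-trend *p* below 0.05, 3 of the 10 genes, where 3.53% of all genes tested were lower at this level and 0.503% were higher. Of the 10 genes, 9 had a lower mean in OP mice, and *Smad7* had a higher one. The median log2 difference of the 10 was -0.46, beside -0.10 over all genes tested, of which 70.1% were lower. In 6 of the 10 genes every OP mouse was below every OR mouse, an arrangement found in 6.81% of all genes tested; the reverse arrangement was found in 0 of the 10 and in 1.63% of all. After median-of-ratios scaling between the mice, which moved the median of all genes to 0.01 and the counts at an unadjusted *p* below 0.05 from 477 lower and 68 higher to 423 lower and 153 higher, the median of the 10 was -0.38 and the same 9 of the 10 were lower. Without OP mouse 1 the medians were -0.38 for the 10 genes and -0.01 for all genes.

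*Ltbp4*, which encodes a latent binding protein that also takes part in elastic fibre assembly, differed most between the groups. Its FPKM was 6.92, 8.4 and 13.66 in OP mice 1, 2 and 3 and 18.89, 23.53 and 34.9 in OR mice 1, 2 and 3. The groups were well apart: even the lowest OR mouse, mouse 1, exceeded the highest OP mouse, mouse 3. The mean was 9.66 ± 3.54 FPKM (SD, n = 3) in OP mice and 25.8 ± 8.24 FPKM (SD, n = 3) in OR mice, 2.67 times as high. On the log2 scale the difference was -1.33 (SE 0.30, 95% interval -2.03 to -0.64), and only 0.266% of the genes tested lay lower. It did not pass adjustment over all genes (limma-trend adjusted *p* = 0.710), where the other 9 genes had adjusted *p*-values from 0.933 to 0.948. Without OP mouse 1 the difference was -1.15, and across all 14 alternative fits it stayed between -1.59 and -1.10.

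*Ltbp4* has separate transcript starts, which a value per gene symbol cannot tell apart. RefSeq promoter windows (300 bases, from 250 before to 50 after a start, build GRCm38.p6, whereas the expression values were made on GRCm39) were found for 7 of the 10 genes, 11 windows in all; *Tgfb3*, *Tgfbr3* and *Smad7* had none in the table used. Of the *Ltbp4* windows, 2 that do not overlap and the window of *Tgfbr2*, the receptor with the widest range, are shown so that the starts of *Ltbp4* can be compared with each other and with a receptor gene. They lie at chr7:27337563-27337862, chr7:27333599-27333898 and chr9:116175314-116175613, all on the minus strand, and are printed from 5′ to 3′ with capitals marking GC boxes (GGGCGG or its complement CCGCCC) and the core SMAD box (CAGAC or its complement GTCTG).

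*Ltbp4*, upstream start: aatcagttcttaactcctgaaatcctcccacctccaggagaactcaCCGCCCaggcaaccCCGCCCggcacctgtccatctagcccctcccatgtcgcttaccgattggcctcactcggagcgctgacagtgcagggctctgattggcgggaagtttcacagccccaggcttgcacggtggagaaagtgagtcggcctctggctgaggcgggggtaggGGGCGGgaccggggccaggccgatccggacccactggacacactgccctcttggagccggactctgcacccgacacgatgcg
*Ltbp4*, downstream start: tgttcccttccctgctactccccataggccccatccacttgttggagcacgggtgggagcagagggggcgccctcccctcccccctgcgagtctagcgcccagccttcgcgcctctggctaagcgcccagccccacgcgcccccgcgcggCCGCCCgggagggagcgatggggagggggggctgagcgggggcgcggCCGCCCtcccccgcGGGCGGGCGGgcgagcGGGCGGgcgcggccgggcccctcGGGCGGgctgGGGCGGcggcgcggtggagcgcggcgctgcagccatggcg
*Tgfbr2*: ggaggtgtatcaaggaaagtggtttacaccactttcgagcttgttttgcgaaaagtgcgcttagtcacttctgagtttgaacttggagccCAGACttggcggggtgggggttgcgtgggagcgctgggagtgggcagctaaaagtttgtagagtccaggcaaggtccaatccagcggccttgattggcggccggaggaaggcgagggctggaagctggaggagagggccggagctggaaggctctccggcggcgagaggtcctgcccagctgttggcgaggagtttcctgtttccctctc

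The upstream *Ltbp4* window held 3 GC boxes at 64.3% G and C, and the downstream window held 7, counted with overlaps, at 80.3%. Neither held the SMAD box letters. The *Tgfbr2* window held 1 SMAD box and 0 GC boxes at 59.0% G and C. Over the 11 windows of the TGF-beta genes, 6 held a SMAD box and 6 a GC box, where 49.6% and 35.7% of all 32851 promoter windows did. Some of the 11 belong to the same gene, and overlapping *Ltbp4* windows with GC boxes count shared bases more than once. The only window with TATAAA or its complement TTTATA was that of *Tgfb2*, against 13.6% of all windows. *Tgfb1* had 6 GC boxes and *Tgfbi* 2 SMAD boxes. These are matches of letters only, and nothing measured here shows which of them is used.

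**Figure D1:**
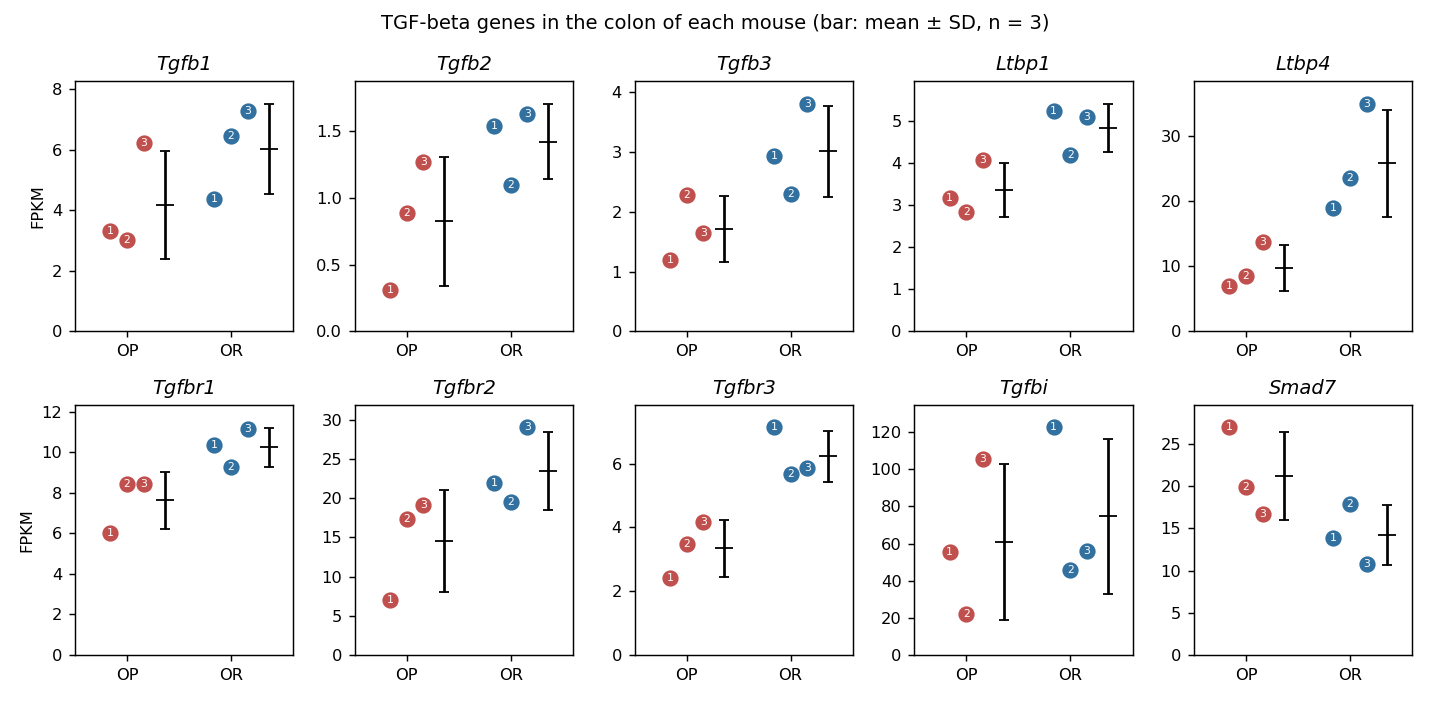
FPKM of the 10 TGF-beta genes in each mouse, 1 panel per gene with an axis from 0; numbered points are mice (OP red, OR blue) and black bars are the mean ± SD of 3 mice. *Ltbp4* separates the groups widest, from at most 13.66 in OP mice to at least 18.89 in OR mice, while *Tgfbi* spans 21.91 to 122.5 with the groups interleaved.

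*Ltbp1*, which encodes the founding member of the latent binder family, was measured at 3.17, 2.84 and 4.07 FPKM in OP mice, against 5.24, 4.19 and 5.09 FPKM in OR mice. The groups did not overlap, but OP mouse 3 and OR mouse 2 were close. Its log2 difference was -0.43 (SE 0.19, 95% interval -0.88 to 0.03), and -0.40 without OP mouse 1. Because both binders are measured in the same library, their proportion does not depend on scaling between mice. *Ltbp4* made up 68.6%, 74.7% and 77.0% of the summed FPKM of the pair in OP mice and 78.3%, 84.9% and 87.3% in OR mice. The mean share was 73.5% ± 4.37 (SD, n = 3) in OP mice, against 83.5% ± 4.66 (SD, n = 3) in OR mice, without overlap (two-sided exact permutation *p* = 0.1, the smallest that 3 mice against 3 allow). The share was thus lower in each OP mouse, although 3 mice against 3 cannot bring this test below 0.05. It describes this pair only. The related binder gene *Ltbp3*, outside the pair, averaged 4.20 FPKM in OP mice and 5.22 FPKM in OR mice. Its groups overlapped, with a log2 difference of -0.27 (SE 0.22).

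Among the ligands, *Tgfb3* had 1.19, 2.29 and 1.65 FPKM in OP mice and 2.93, 2.3 and 3.81 FPKM in OR mice. OP mouse 2 and OR mouse 2 differed only in the last decimal of the file, so the separation of the groups rests on the rounding. The log2 difference of *Tgfb3* was -0.57 (SE 0.23, 95% interval -1.11 to -0.03; limma-trend adjusted *p* = 0.945). Without OP mouse 1 it was -0.43 and no longer among the genes with an unadjusted *p* below 0.05, where *Tgfb3* stayed under 8 of 14 alternatives.

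*Tgfb1*, the most abundant of the 3 ligand transcripts and the isoform best known from immune cells and platelets, had 3.3, 3 and 6.21 FPKM in OP mice and 4.37, 6.44 and 7.26 FPKM in OR mice. OP mouse 3 lay among the OR mice, so the groups overlapped. Its log2 difference was -0.47 (SE 0.29, 95% interval -1.15 to 0.21), and it was -0.36 without OP mouse 1, -0.31 without OP mouse 2 and -0.74 without OP mouse 3. *Tgfb2* was the scarcest of the 10 genes in every mouse, with 0.31, 0.89 and 1.27 FPKM in OP mice and 1.54, 1.1 and 1.63 FPKM in OR mice. The *Tgfb2* groups overlapped through OP mouse 3 and OR mouse 2, with a log2 difference of -0.44 (SE 0.24, 95% interval -1.0 to 0.12), -0.22 without OP mouse 1 and -0.87 with a pseudocount of 0.1.

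The make-up of the ligand pool varied between mice within both groups. *Tgfb1* supplied 61.8% ± 11.5 (SD, n = 3) of the summed ligand FPKM in OP mice, against 57.4% ± 8.01 (SD, n = 3) in OR mice, with individual mice from 48.5% to 68.8% (two-sided exact permutation *p* = 0.6). *Tgfb3* supplied 26.6% ± 9.63 (SD, n = 3) and 28.8% ± 4.99 (SD, n = 3), and *Tgfb2* supplied 11.6% ± 4.45 (SD, n = 3) and 13.8% ± 3.23 (SD, n = 3). No shift between the ligands stood out from this spread. With 3 mice against 3 the permutation test cannot go below 0.1, so it could not establish a shift.

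**Figure D2:**
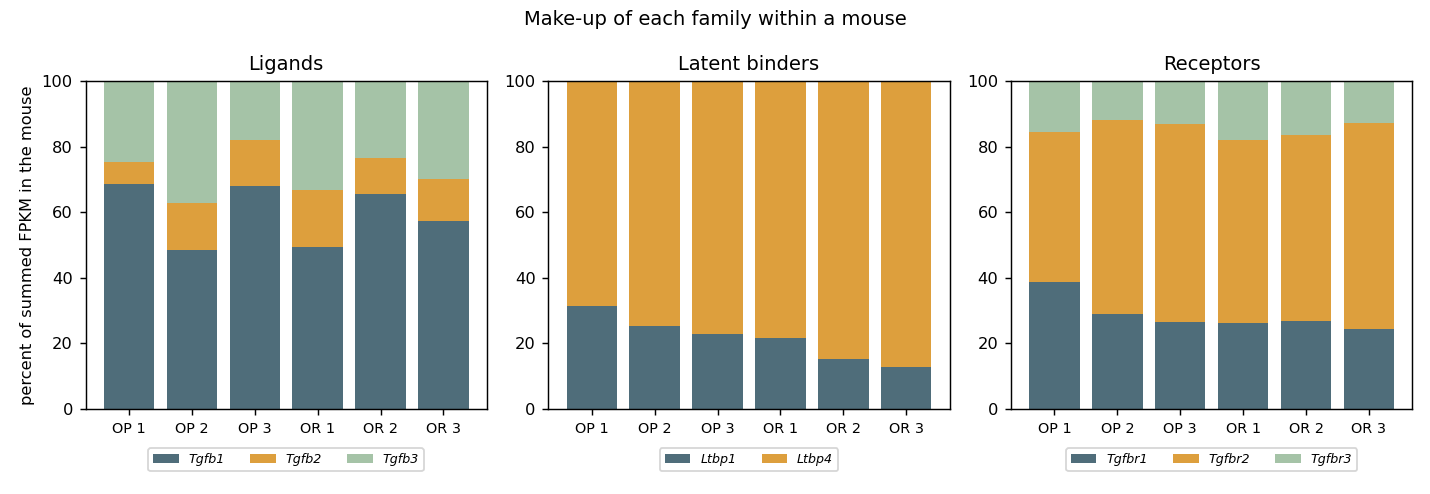
Share of each gene within each mouse (percent, stacked to 100) in the summed FPKM of the 3 ligands, of *Ltbp1* and *Ltbp4*, or of the 3 receptors. Other latent binders are left out. The *Ltbp4* share lies between 68.6% and 77.0% in OP mice and between 78.3% and 87.3% in OR mice, and the shares of *Tgfb1* and *Tgfbr2* overlap between the groups.

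Each of the receptor genes was lower in every OP mouse than in every OR mouse, an arrangement found in 6.81% of all genes tested. *Tgfbr3*, encoding the co-receptor betaglycan, which is required most for TGF-beta2 to bind, had 2.4, 3.48 and 4.18 FPKM in OP mice and 7.14, 5.69 and 5.87 FPKM in OR mice. The groups did not overlap, and OR mouse 1 was the highest. Its mean was 3.35 ± 0.897 FPKM (SD, n = 3) in OP mice and 6.23 ± 0.790 FPKM (SD, n = 3) in OR mice, and its log2 difference was -0.75 (SE 0.22, 95% interval -1.26 to -0.24; limma-trend adjusted *p* = 0.933). *Tgfbr3* kept an unadjusted *p* below 0.05 under all 14 alternatives, as did *Ltbp4*, and had a log2 difference of -0.58 without OP mouse 1.

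*Tgfbr2*, the ligand-binding type II receptor, had 7.07, 17.34 and 19.13 FPKM in OP mice and 22.02, 19.48 and 29.05 FPKM in OR mice. The 2 higher OP mice lay close to OR mouse 2, and OP mouse 1 lay far below all others. The log2 difference of *Tgfbr2* was -0.75 (SE 0.35, 95% interval -1.58 to 0.08) and -0.33 without OP mouse 1, so more of its size came from that mouse than for any other of the 10 genes. *Tgfbr1*, the type I receptor kinase that phosphorylates SMAD2 and SMAD3, was the steadiest of the receptors, with 6, 8.45 and 8.43 FPKM in OP mice and 10.35, 9.25 and 11.17 FPKM in OR mice. Its log2 difference was -0.39 (SE 0.19, 95% interval -0.84 to 0.05) and -0.25 without OP mouse 1. Within a mouse, *Tgfbr2* made up 55.1% ± 8.13 (SD, n = 3) of the receptor FPKM in OP mice, against 58.5% ± 3.99 (SD, n = 3) in OR mice (two-sided exact permutation *p* = 0.7), and without OP mouse 1 the direction of this small difference turned.

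*Smad7*, the inhibitory SMAD, was the only one of the 10 genes with a higher mean in OP mice. It had 26.98, 19.89 and 16.75 FPKM in OP mice and 13.9, 17.9 and 10.8 FPKM in OR mice. OP mouse 3 was below OR mouse 2, so the groups overlapped. The mean was 21.2 ± 5.24 FPKM (SD, n = 3) in OP mice and 14.2 ± 3.56 FPKM (SD, n = 3) in OR mice, with a log2 difference of 0.55 (SE 0.24, 95% interval -0.01 to 1.11; limma-trend adjusted *p* = 0.945). Of the genes tested, 98.7% had a lower difference. It was positive under all 14 alternatives, between 0.37 without OP mouse 1 and 0.72 without OR mouse 2.

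*Tgfbi*, a secreted matrix protein gene named for its induction by TGF-beta, was the most abundant of the 10 in every mouse and the most variable within groups, relative to its mean. It had 55.53, 21.91 and 105.5 FPKM in OP mice and 122.5, 45.58 and 55.87 FPKM in OR mice. OP mouse 3 and OR mouse 1 were high and OP mouse 2 was low, and the groups interleaved. The spread within a group (SD 42.1 FPKM in OP mice and 41.7 FPKM in OR mice) exceeded the difference of the means, 61.0 and 74.6 FPKM. Its log2 difference was -0.42 (SE 0.58, 95% interval -1.77 to 0.94), and it turned positive without OP mouse 2 (0.17) and without OR mouse 1 (0.01). It was -0.48 without OP mouse 1, -0.94 without OP mouse 3, -0.70 without OR mouse 2 and -0.84 with sample weights.

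**Figure D3:**
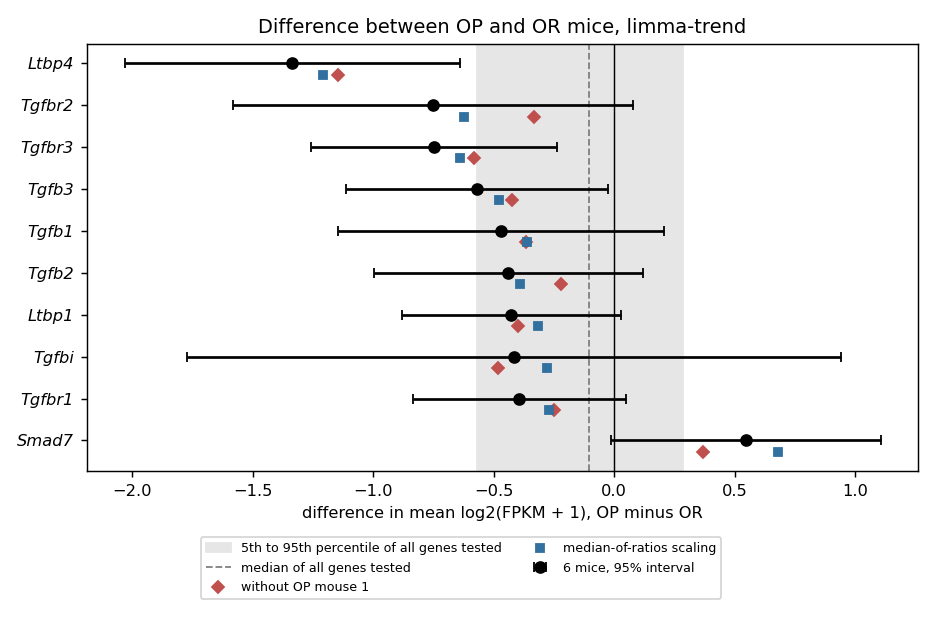
Difference in mean log2(FPKM + 1), OP minus OR, for each of the 10 genes with its 95% interval from limma-trend (black), without OP mouse 1 (red) and after median-of-ratios scaling (blue); the grey band holds the 5th to 95th percentile of all 13520 genes tested. The intervals of *Ltbp4*, *Tgfbr3* and *Tgfb3* lie below 0, and *Smad7* is the only gene on the positive side.

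By level, which FPKM expresses per transcript length, the 10 genes spanned a wide range in each mouse. *Tgfbi* averaged 67.8 ± 38.2 FPKM (SD over 6 mice), followed by *Tgfbr2* at 19.0 ± 7.15, *Ltbp4* at 17.7 ± 10.5 and *Smad7* at 17.7 ± 5.55, then by *Tgfbr1* at 8.94 ± 1.80, *Tgfb1* at 5.10 ± 1.78, *Tgfbr3* at 4.79 ± 1.75 and *Ltbp1* at 4.10 ± 0.974, and last by *Tgfb3* at 2.36 ± 0.928 and *Tgfb2* at 1.12 ± 0.483. Among neighbours in this order, *Tgfbi* was above *Tgfbr2*, *Tgfbr1* above *Tgfb1*, *Ltbp1* above *Tgfb3* and *Tgfb3* above *Tgfb2* in 6 of 6 mice. *Ltbp4* was above *Smad7* in 3 of 6 mice only, and *Tgfbr2* above *Ltbp4* and *Tgfb1* above *Tgfbr3* in 4 of 6. The order of these neighbours thus varied between mice. *Smad7* was above *Tgfbr1* and *Tgfbr3* above *Ltbp1* in 5 of 6 mice. *Ltbp4* was above *Smad7* in each OR mouse and below it in each OP mouse. OP mouse 1 held the lowest value of 6 of the 10 genes and OR mouse 3 the highest value of 6.

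Over the 6 mice the members that followed each other most closely were *Tgfbr1* and *Tgfbr2*, with a Pearson r of 0.973 on the log2(FPKM + 1) scale, and *Tgfb2* with *Tgfbr2* (0.970). *Smad7* had a negative r with every other member, the nearest to 0 being -0.339 with *Tgfbi*. Among all other 13519 genes tested, the 5 closest to *Ltbp4* were *Ackr3* (0.996), *Lrrc32* (0.995), *Bgn* (0.994), *C1ra* (0.992) and *She* (0.987). These values are descriptions over 6 points that share the difference between the groups, and 281 genes had an r above 0.9 with *Ltbp4*.

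The rest of the pathway was examined through 5 lists. Of the 14 latency and activation genes, 11 were tested, 6 were lower in OP mice and 5 were higher, a smaller share lower than the 70.1% of all genes, with a median log2 difference of -0.27. *Lrrc32*, encoding the cell-surface anchor GARP that holds latent TGF-beta on regulatory T cells and other cells, had 0.39, 0.6 and 1.19 FPKM in OP mice and 1.45, 1.73 and 2.63 FPKM in OR mice, without overlap (log2 difference -0.77, SE 0.24, limma-trend adjusted *p* = 0.945). *Fbn1*, the fibrillin to which latent complexes attach, had a log2 difference of -0.76 (SE 0.32), with overlapping groups. *Itgb6*, the epithelial integrin subunit that activates TGF-beta1, had the lowest *p* among the genes higher in OP mice, at 0.44 (SE 0.42), and spanned 4.22 to 12.34 FPKM in OP mice and 3.73 to 9.52 FPKM in OR mice, so it did not separate the groups. At the threshold used for calling, 0 of the 11 genes passed, and 2 were lower at an unadjusted *p* below 0.05, beside 3.53% of all genes.

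Among co-receptors and inhibitors, the median log2 difference was -0.23 and 13 of 17 genes tested had a lower OP mean, 4 of them at an unadjusted *p* below 0.05, and 0 were called. Of all genes tested, 70.1% had a lower OP mean and 3.53% were lower at that level. *Dcn* (decorin) and *Bgn* (biglycan), small matrix proteoglycans that bind TGF-beta, had the lowest *p*-values. *Dcn* is also in the fibroblast marker list used here, so it enters both lists. *Dcn* had 27.89, 17.35 and 40.8 FPKM in OP mice and 81.13, 95.49 and 191 FPKM in OR mice (log2 difference -2.03, SE 0.39, limma-trend adjusted *p* = 0.624), and *Bgn* had a log2 difference of -1.05 (SE 0.28). *Skil*, a SMAD co-repressor, was the leading gene in the other direction, at 0.23 (SE 0.31) with overlapping groups. Of the 9 signal transducers tested, 7 were lower, the median was -0.06 and 0 had an unadjusted *p* below 0.05 in either direction. *Zfyve9*, the SMAD anchor SARA, had -0.39 (SE 0.21), *Ep300* had -0.11 (SE 0.15) and *Tab1* had 0.19 (SE 0.21). The transducer median was 0.07 after median-of-ratios scaling, 0.04 without OP mouse 1 and 0.01 with sample weights, so its direction depended on these choices.

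Of 22 genes known to be induced by TGF-beta, 17 were tested, 16 were lower in OP mice and 8 were lower at an unadjusted *p* below 0.05, with a median log2 difference of -0.47. Over all genes tested these shares were 70.1% and 3.53%, and 0.0222% were called lower. *Postn* (periostin) was the only one called (log2 difference -0.94, SE 0.11, limma-trend adjusted *p* = 0.198); it had 33.75 to 35.57 FPKM in OP mice and 67.19 to 68.21 FPKM in OR mice. Under median-of-ratios scaling, and without OP mouse 1, the count of all genes called was 0, so *Postn* lost its call. *Col3a1* (collagen III) had 17.89, 17.2 and 18.85 FPKM in OP mice and 32.55, 30.24 and 40.71 FPKM in OR mice, with a limma-trend adjusted *p* of 0.582. The immediate-early gene *Junb* was the only one of the 17 listed targets tested with a higher mean in OP mice, 0.18 (SE 0.19). *Smad7*, also a target gene, was kept outside this list and had a log2 difference of 0.55 (SE 0.24). Of the targets, 5 are also in the fibroblast or smooth muscle marker lists used here. The 12 tested targets in no marker list had a median of -0.37, and 11 of them were lower. They were split off by list membership only, so they may still be expressed in those cells. *Bgn*, *Fbn1*, *Col1a1* and *Col3a1* are among the key driver genes that the study derived from these same mice, so their values here are not independent evidence of a direction. The study reported *Bgn*, *Col1a1* and *Col3a1* as significantly higher in OR mice in its own RNA-seq analysis. Here they were not called, with limma-trend adjusted *p*-values of 0.805, 0.798 and 0.582. At the same fold change and adjusted *p* cutoffs, the study's DESeq2 analysis called more genes in both directions than were called here. The reason for this gap was not tested. It also reported *Bgn*, *Fbn1* and *Col3a1* as higher in OR mice by quantitative PCR.

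Cell type markers moved alongside these genes, and in whole tissue fewer cells of a type and less RNA per cell cannot be told apart. No gene of the marker lists was called. Over all genes tested, 70.1% were lower in OP mice and the median log2 difference was -0.10. Fibroblast markers were lower in OP mice in 9 of 9 genes (median log2 difference -0.89), with a summed level of 80.7 to 154.8 FPKM in OP mice and 221.3 to 459.5 FPKM in OR mice. Blood endothelial markers were lower in 10 of 10 (median -0.80), with sums of 20.1 to 34.1 and 37.2 to 66.0 FPKM. Macrophage markers were lower in 8 of 9 (median -0.88), with sums of 60.5 to 119.3 and 120.5 to 157.3 FPKM. The sums weight abundant genes such as *Dcn*. Gene by gene, the groups were apart in 5 of 9 fibroblast, 6 of 10 endothelial and 6 of 9 macrophage markers and overlapped in the rest. Of all genes tested, 6.81% had every OP mouse below every OR mouse. For smooth muscle the median was -0.33 (9 of 9 lower), for T cells -0.49 (5 of 5 tested lower), for enteric glia -0.35 (4 of 4 lower), for adipocytes -0.48 (6 of 7 lower) and for mesothelium -0.09 (1 of 2 tested lower), with overlapping summed levels in each; the mesothelial median turned positive without OP mouse 2 (0.27) or OR mouse 1 (0.09). *Adipoq*, *Plin1* and *Lep* were listed at 0 in OP mouse 2. Epithelial markers, which dominate the tissue at 15170 to 28960 FPKM in sum, had a median of 0.09 with 4 of 12 lower, and *Epcam* and the colonic transcription factor gene *Cdx2* were high in every mouse, as the tissue label requires. The medians of fibroblast, endothelial and macrophage markers exceeded that of the 10 TGF-beta genes (-0.46) in size. Those of T cell (-0.49) and adipocyte (-0.48) markers were also slightly larger in size. The part of any of these cells in the TGF-beta differences was not tested.

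**Figure D4:**
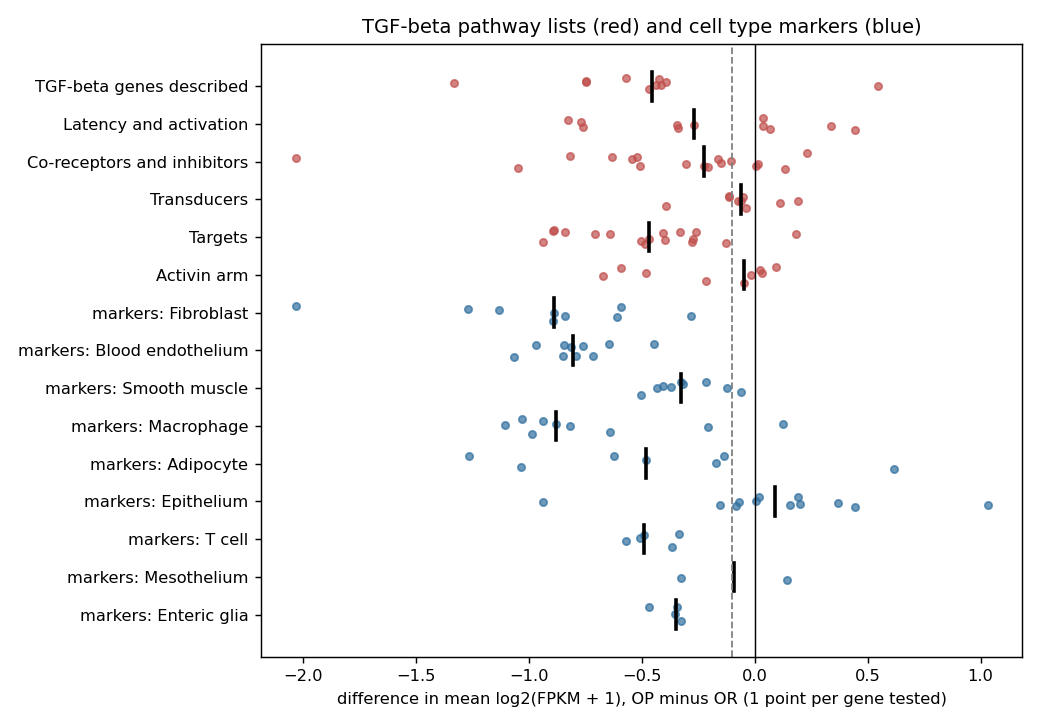
Difference in mean log2(FPKM + 1), OP minus OR, of each tested gene in the TGF-beta pathway lists (red) and the cell type marker lists (blue); vertical bars are list medians and the dashed line is the median of all genes tested, -0.10. Target genes (median -0.47) lie below the transducers (-0.06), and the fibroblast, blood endothelium and macrophage markers lie lowest.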

How the data were processed

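Whole-colon RNA of 3 OP and 3 OR mice was measured by RNA-seq. According to the study's methods, mRNA was enriched and strand-specific libraries were sequenced on DNBSEQ, and the authors filtered reads with SOAPnuke, aligned them with Bowtie2 to a mouse gene set on GRCm39 and quantified genes with RSEM. The labels give other Bowtie2 and RSEM versions and a BGI gene set, and the submitters' processing notes also name HISAT2 2.0.4. FPKM was the deposited unit, to 2 decimals; the 6 columns were mapped to mice by their labels, and all were used. No batch or date is given.

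Genes reaching 0.5 FPKM in 3 or more mice were tested with limma-trend (limma 3.58.1, R 4.3.3) on log2(FPKM + 1), without covariates, with Benjamini-Hochberg adjustment over all genes; the study's DESeq2 needs counts and was not run. For shares, the exact permutation test was two-sided (SciPy 1.17.1). The fit was tested on simulated data. Each library is 1 mouse, so *p*-values measure the spread between these mice.

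The genes, lists and tests were chosen with earlier results of these data known. Named are the 10 genes, of each pathway list the 2 lower genes and the 1 higher gene with the lowest *p*, and the 5 genes most like the member with the lowest *p*; *Epcam*, *Cdx2* and the adipocyte genes at 0 were named after their values were seen. Same-numbered mice are different animals. Alternatives were other scalings, pseudocount, filters, limma without trend, sample weights, a replicate block and each mouse left out.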

Additional observations from a re-analysis of the deposited data

How the results depend on the processing

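The depth behind the FPKM values is unknown. The limma-trend adjusted *p*-values of the 10 TGF-beta genes were 0.329 or above in every fit. Alternatives for the list medians were added after seeing the data. The count of genes called lower in OP mice was 3; it was 0 with median-of-ratios scaling, after rescaling to TPM, with a pseudocount of 0.1, with no filter, with at least 1 FPKM in all 6 mice and with the replicate block, and 5 with sample weights. Leaving out 1 mouse at a time gave from 0 to 1, the 1 without OP mouse 2. The count called higher was 0 in the fit over 6 mice and in every alternative, and 68 genes were higher at an unadjusted limma-trend *p* below 0.05. With no fold change threshold the counts were unchanged. Of the 10 genes, 3 were lower at an unadjusted *p* below 0.05; leaving out 1 mouse gave from 2 to 6, the 6 without OP mouse 3. Their median of -0.46 was -0.68 with a pseudocount of 0.1 and from -0.68 without OP mouse 3 to -0.38 without OP mouse 1. *Tgfbi* reversed to 0.17 without OP mouse 2 and to 0.01 without OR mouse 1, in a range from -0.94. The share of *Ltbp4* was lower in OP mice by from -12.6 to -7.59 percentage points with each mouse left out, where the smallest possible *p* is 0.2. The difference in the share of *Tgfb1* was between 0.464 and 11.03 points, and that in the share of *Tgfbr2* among the receptors between -5.98 and 1.304, reversed without OP mouse 1. The latency and activation median was 0.034 with at least 1 FPKM in all 6 mice, which tests fewer genes, and -0.090 with no filter, and from -0.295 to -0.12 (without OP mouse 1) with a mouse left out. The co-receptor median was -0.36 with a pseudocount of 0.1 and from -0.36 to -0.178 with a mouse left out, and the transducer median was 0.071 with median-of-ratios scaling. The cause was not tested.

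In the paired fit with the replicate block the count called lower was 0, while 409 genes lower and 66 higher had an unadjusted *p* below 0.05, and 3 of the 10 genes were again lower at that level, with a median of -0.46. These were *Ltbp4*, *Tgfbr3* and *Tgfbr2* in place of *Tgfb3*, and *Smad7* was higher at that level; for the *Ltbp4* share the exact sign-flip *p* was 0.25, the smallest that 3 pairs allow. No label pairs the mice by number. Deviations from the group means correlated at -0.144, -0.157 and 0.0709 for same-numbered mice, and from -0.464 to 0.537 for mice of different number. With 3 mice per group these values cannot show whether any mice shared a batch.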

Other observations

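The activin arm of the TGF-beta superfamily shares SMAD2 and SMAD3 with TGF-beta but uses its own receptors. Together with the superfamily ligand *Gdf15*, it was listed as 11 further genes, of which 9 were tested. Of these, 6 were lower and 3 higher in OP mice, with a median log2 difference of -0.05, close to the -0.10 of all genes tested, and 0 were called. With median-of-ratios scaling this median turned to 0.03, so its direction depended on the scaling. *Fstl1*, a secreted follistatin-like glycoprotein of mesenchymal cells, was the only one with an unadjusted limma-trend *p* below 0.05. Of all genes tested, 70.1% were lower in OP mice, 3.53% were lower at that level and 0.0222% were called lower. *Fstl1* is thus 1 of 9 genes. It had 5.72, 7.17 and 7.3 FPKM in OP mice and 11.11, 10.39 and 12.34 FPKM in OR mice, without overlap (log2 difference -0.67, SE 0.17, limma-trend adjusted *p* = 0.798). *Fstl3*, an activin antagonist, had 1.4, 2.48 and 2.37 FPKM in OP mice and 4.61, 2.48 and 2.94 FPKM in OR mice, so that OP mouse 2 and OR mouse 2 were equal (log2 difference -0.48, SE 0.25). The type I activin receptor gene *Acvr1b* was the abundant member of the arm, at 47.7 ± 7.56 FPKM (SD, n = 3) in OP mice and 44.6 ± 5.95 FPKM (SD, n = 3) in OR mice, and the groups overlapped (log2 difference 0.09, SE 0.16).

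The genes whose values followed *Ltbp4* most closely had different levels. *Ackr3*, an atypical chemokine receptor that scavenges CXCL12, had 1.73, 2 and 3.72 FPKM in OP mice and 4.93, 5.5 and 8.71 FPKM in OR mice. *C1ra*, a serine protease gene of the classical complement pathway, had 3.9, 4.26 and 6.85 FPKM in OP mice and 7.82, 8.55 and 11.53 FPKM in OR mice. *She*, an adaptor protein gene, stayed at 1.08 FPKM or below in every mouse. In each of these genes, as in *Ltbp4*, no OP mouse reached the lowest OR mouse, which held for 6.81% of all genes tested. The closeness follows in part from the choice of the highest r among all genes.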
